A study of Mus musculus with 24 samples.

Results

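The genes described here are 10 mouse genes of MHC class I antigen presentation and the immunoproteasome, out of 36528 gene models counted in each of 24 RNA sequencing libraries. They were chosen by name for their known roles, with earlier results of these data known. All 10 were found in the count tables by their Entrez gene identifiers. H2-K1 and H2-D1 encode the class I heavy chains K and D, and B2m encodes beta-2 microglobulin, the light chain. Tap1, Tap2 and Tapbp encode the peptide transporter and tapasin, which holds the transporter next to empty class I molecules. Psmb8, Psmb9 and Psmb10 encode the catalytic subunits of the immunoproteasome, and Nlrc5 encodes a transactivator of class I genes. By the annotation of the mouse assembly GRCm38.p6, 7 of the 10 lie on chromosome 17, in or near the major histocompatibility complex, while B2m lies on chromosome 2 and Psmb10 and Nlrc5 lie on chromosome 8.

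The study asked how fluid flow acts on the stroma of Peyer's patches, lymphoid organs in the wall of the small intestine. Mice drank polyethylene glycol (PEG, 10% w/v) for 3 days, which was meant to diminish flow, or were left unperturbed. From each mouse 1000 endothelial cells were sorted from high endothelial venules (HEVs), where lymphocytes leave the blood, or 1000 fibroblastic reticular cells (FRCs), the fibroblasts of the tissue scaffold. There were 6 libraries of HEV cells from mice on PEG, 4 of HEV cells from unperturbed control mice, 7 of FRCs from mice on PEG and 7 of FRCs from control mice. They are called HEV PEG, HEV control, FRC PEG and FRC control below, with the library number of the labels. No allele or transgene is named for any group, and strain, sex and age are not given in the sources used here. Within a cell type the libraries came from different mice, but whether HEV and FRC libraries share mice is not stated, and they were compared as independent samples.

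Class I molecules carry short peptides of cell proteins to the cell surface, where CD8 T cells read them. The proteasome cuts the peptides, the transporter moves them into the endoplasmic reticulum, and the loading complex places them on the heavy chain and its light chain. In cells exposed to interferon gamma the immunoproteasome subunits take the place of the constitutive catalytic subunits, and NLRC5 binds as part of a complex at the upstream elements of class I genes and raises their transcription.

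Reads assigned to genes numbered 3115003 in HEV PEG library 16 and between 12416032 and 21710946 in the other 23 libraries, with a median of 16136689 over all 24. Levels within a gene are given as CPM, the count scaled to one total for all libraries, and levels between genes as RPKM adjusted by the submitters' size factor, which also divides by gene length. By cell type markers, 12 of 12 tested endothelial and venule markers were higher and 9 of 9 tested FRC markers lower in HEV libraries, both in controls and under PEG. Of the control libraries, 2 stood apart in these sums. HEV control library 9 held 487.7 CPM of FRC markers, against 5.62 to 62.3 CPM in the other HEV libraries. FRC control library 20 held 665.5 CPM of endothelial and venule markers, against 105 to 254 CPM in the other FRC libraries. Without library 9, 8 of 10 members were called higher in HEV controls and 0 lower. Of the 16524 genes tested there, 1280 were called higher and 1841 lower. Without library 20 there were also 8 members higher and 0 lower, with 1451 of 15285 genes higher and 1882 lower. Libraries 1 to 9 stood apart from libraries 10 to 24, so values within each range are given where they matter. All HEV PEG libraries carried the i5 index N504 and all FRC PEG libraries N503, while both indices occurred in either control group. Between HEV and FRC under PEG, the index and the cell type cannot be told apart.

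The upstream sequences of 4 members are shown because they carry the elements by which class I genes are known to be switched on, and because 2 of them are near copies and another is shared by a pair of members. RefSeq sequence of GRCm38.p6 was given for 8 of the 10 members. The 250 bases upstream of the annotated start are printed 5′ to 3′ along the strand of the gene, in lower case, with motif matches in capitals. H2-K1 has 2 annotated starts and the sequence is that of the downstream one.
H2-K1, chr17:34000334-34000583, minus strand: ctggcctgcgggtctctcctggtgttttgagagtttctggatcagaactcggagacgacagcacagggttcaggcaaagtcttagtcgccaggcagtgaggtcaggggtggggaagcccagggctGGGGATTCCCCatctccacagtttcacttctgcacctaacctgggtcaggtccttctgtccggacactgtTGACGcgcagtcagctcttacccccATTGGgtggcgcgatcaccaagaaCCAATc
H2-D1, chr17:35262844-35263093, plus strand: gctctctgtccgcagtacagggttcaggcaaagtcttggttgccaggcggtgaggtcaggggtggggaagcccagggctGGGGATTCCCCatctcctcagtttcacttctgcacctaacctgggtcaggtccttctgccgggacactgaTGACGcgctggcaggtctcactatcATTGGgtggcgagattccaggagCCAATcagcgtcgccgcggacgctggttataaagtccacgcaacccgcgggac
B2m, chr2:122147437-122147686, plus strand: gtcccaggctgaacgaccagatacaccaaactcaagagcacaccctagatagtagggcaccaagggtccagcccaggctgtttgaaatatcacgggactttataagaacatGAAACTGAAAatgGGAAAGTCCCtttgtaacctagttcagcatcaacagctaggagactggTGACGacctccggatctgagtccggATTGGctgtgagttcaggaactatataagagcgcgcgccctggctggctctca
Tap1, chr17:34187306-34187555, plus strand: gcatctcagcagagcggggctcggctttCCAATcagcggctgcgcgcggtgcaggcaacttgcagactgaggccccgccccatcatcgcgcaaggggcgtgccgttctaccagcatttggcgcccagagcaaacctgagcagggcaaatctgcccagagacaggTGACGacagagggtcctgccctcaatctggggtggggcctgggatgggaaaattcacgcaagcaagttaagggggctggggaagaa
Motifs were searched on both strands. A kappaB consensus (the NF-kappaB element) was found in H2-K1, H2-D1 and B2m, in 3 of 8 members with sequence and in 7.01% of 27025 promoters. The interferon-stimulated response element, searched as GAAA, any 2 bases and GAAA, was found in B2m and in 3.04% of promoters. The search asked for these exact letters, so a member without a match may still hold a variant of the element. TGACG, the core of the X2 element that the NLRC5 complex uses, was found in H2-K1, H2-D1, B2m, Tap1 and Psmb9, which is 5 of 8 members against 17.9% of promoters. CCAAT, the letters of the Y element, was found in 6 of 8 members and in 34.5% of promoters. The gamma-activated element TTCNNNGAA was found in Psmb8, and in 7.18% of promoters. In the printed sequences no 2 different motifs overlapped, and the paired kappaB matches of H2-K1 and H2-D1 lie 1 base apart on one palindrome. The H2-K1 and H2-D1 sequences were identical at 172 of 192 aligned positions (89.6%). Tap1 and Psmb9 are divergent neighbours with 225 bases between their starts, so the printed Tap1 sequence, read on the other strand, holds most of the Psmb9 window. The TGACG and CCAAT matches of Tap1 and Psmb9 are the same letters of this shared stretch, and H2-K1 and H2-D1 are near copies, so the members that hold these motifs are not independent. A match is a run of letters and not a measured binding site.

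All 10 members were detected in every library, and 8 of the 10 were higher in HEV cells than in FRCs, both in control mice and under PEG, while PEG itself moved none of them past the test. The differences were tested with the edgeR quasi-likelihood test over all genes, with Benjamini-Hochberg adjustment and a call at an adjusted p under 0.05. Among controls 8 of 10 members were called higher in HEV and 0 lower, where 10.4% of the 15743 genes tested were called higher and 14.2% lower. Under PEG 8 of 10 were again higher and 0 lower, where 12.5% of 14991 genes were higher and 14.4% lower. In controls the median log2 fold change of the members was 1.13, against -0.16 over all genes tested, and under PEG it was 1.12, against -0.08. In controls, every HEV library lay above every FRC library for the 8 called members, where 8.07% of genes did so, and every HEV library lay below for 0 members, where 11.3% of genes did so. Under PEG 7 of 10 lay above and 0 below, where 7.78% of genes lay above and 9.4% below.

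**Figure D1:**
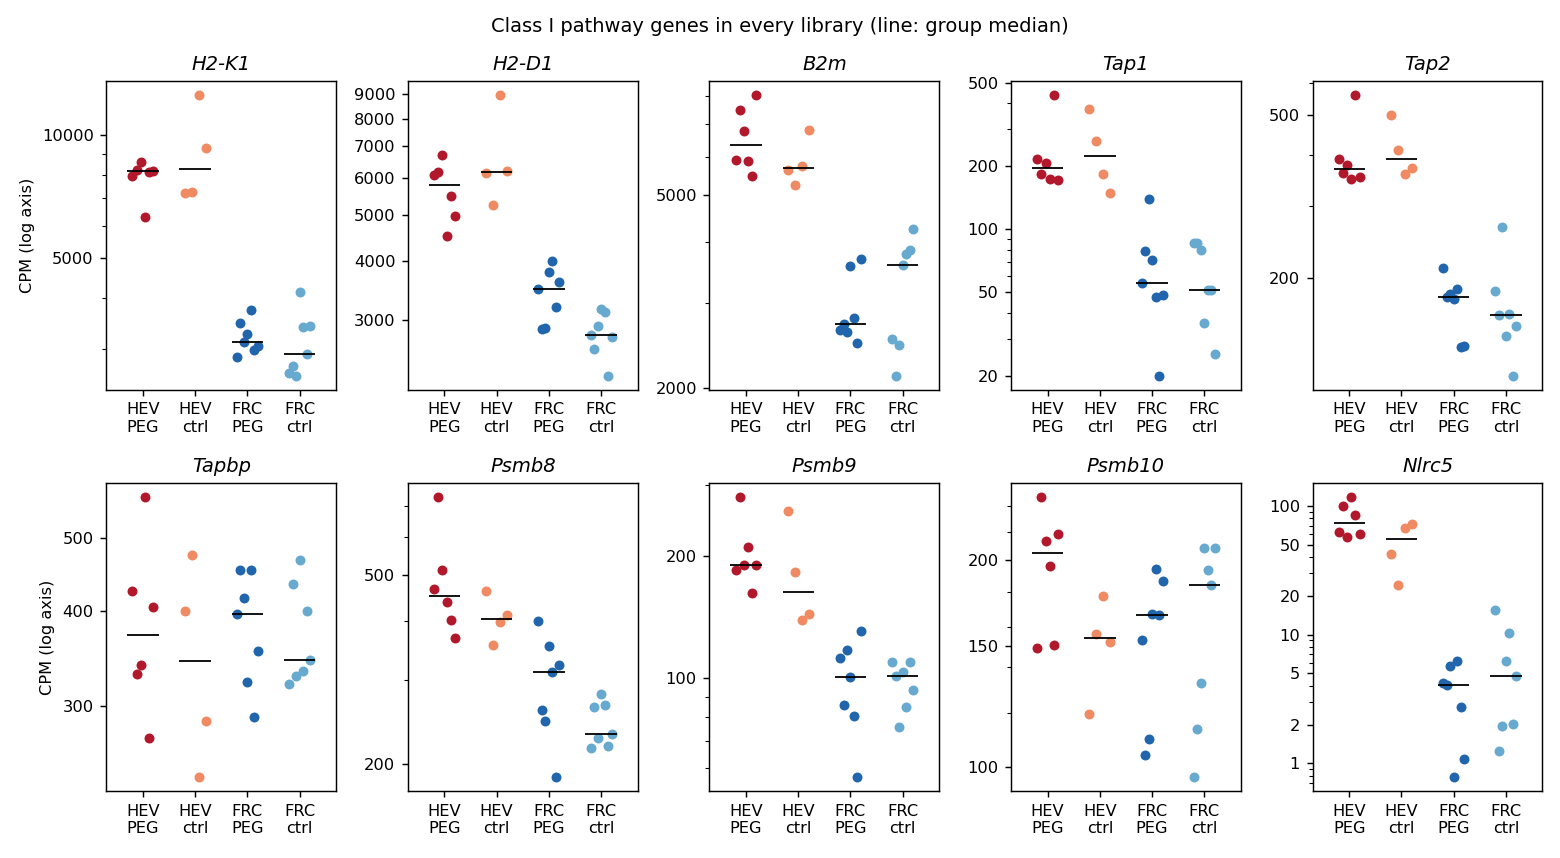
CPM (log axis, a separate scale for each gene) of the 10 genes in every library, with HEV PEG, HEV control, FRC PEG and FRC control from left to right, points for libraries and lines for group medians. The HEV libraries lie above the FRC libraries for H2-K1, H2-D1, B2m, Tap1, Tap2, Psmb9 and Nlrc5, and overlap with them for Tapbp and Psmb10.

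Per length, B2m was the most abundant member in all 4 groups, at 5883 ± 797 size-factor-adjusted RPKM in HEV PEG, 5330 ± 565 in HEV control, 2610 ± 389 in FRC PEG and 2870 ± 700.9 in FRC control (SD, n = 6, 4, 7 and 7). H2-K1 stood above H2-D1 in both HEV groups and below it in both FRC groups, but their ranges overlapped in each group. Psmb8 came next in every group, and its range did not overlap with those of the heavy chains. Tap2, Tapbp, Psmb9 and Psmb10 followed, each overlapping in range with its neighbour in the order, and Tap1 came below them. Nlrc5 was the lowest member, at 7.89 ± 2.44 adjusted RPKM in HEV PEG, 5.15 ± 2.25 in HEV control, 0.348 ± 0.210 in FRC PEG and 0.584 ± 0.514 in FRC control, with no overlap with Tap1.

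Both heavy chains were more abundant in HEV cells. H2-K1 had 6284 to 8608 CPM in HEV PEG libraries (median 8143) and 7209, 7242, 9310.0 and 12510.0 CPM in HEV control libraries, against 2863 to 3741 CPM in FRC PEG (median 3116) and 2581 to 4140.0 CPM in FRC control (median 2920.0). No HEV library reached down to the highest FRC library. The difference on the log2 scale was 1.51 ± 0.16 in controls (SE, edgeR adjusted p = 2.99e-05), a 2.86-fold higher level, and 1.32 ± 0.12 under PEG (adjusted p = 2.13e-06).

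H2-D1 had 4522 to 6707 CPM in HEV PEG (median 5775) and 5254, 6130.0, 6184 and 8971 CPM in HEV control, against 2869 to 4000.0 CPM in FRC PEG (median 3479) and 2285 to 3163 CPM in FRC control (median 2784). The groups of the 2 cell types did not overlap. The log2 difference between HEV and FRC was 1.29 ± 0.17 in controls (edgeR adjusted p = 1.40e-04) and 0.73 ± 0.13 under PEG (adjusted p = 8.47e-04). These genes and their H2-Q relatives are near-identical copies, and only uniquely aligned reads had been kept, so their counts depend on how many reads could be placed and are uncertain.

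B2m, whose product pairs with every classical heavy chain, had 5484 to 8044 CPM in HEV PEG (median 6354) and 5253, 5646, 5738 and 6830.0 CPM in HEV control, against 2479 to 3698 CPM in FRC PEG (median 2715) and 2124 to 4256 CPM in FRC control (median 3595). All HEV libraries were above all FRC libraries. The log2 difference was 0.86 ± 0.14 in controls (edgeR adjusted p = 6.47e-04) and 1.15 ± 0.14 under PEG (adjusted p = 2.60e-05). Within FRC control the libraries fell in 2 ranges, 2124 to 2529 CPM in libraries 1 to 9 and 3595 to 4256 CPM in libraries 10 to 24. The HEV over FRC difference of B2m was 1.25 in libraries 1 to 9 alone and 0.81 in libraries 10 to 24 alone, among controls.

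Of the peptide supply genes, both transporter chains were higher in HEV cells and tapasin was not called. Tap1 had 173 to 437 CPM in HEV PEG (median 196) and 149, 183, 263 and 376 CPM in HEV control, against 20.0 to 139.9 CPM in FRC PEG (median 55.2) and 25.3 to 86.0 CPM in FRC control (median 51.3). The lowest HEV library was still above the highest FRC library. The log2 difference was 2.33 ± 0.23 in controls (edgeR adjusted p = 1.83e-05), a 5.04-fold higher level, and 2.11 ± 0.39 under PEG (adjusted p = 9.95e-04).

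Tap2 had 349 to 559.7 CPM in HEV PEG (median 369) and 359, 371, 410.2 and 501 CPM in HEV control, against 136 to 212 CPM in FRC PEG (median 179.6) and 116 to 267 CPM in FRC control (median 162.5). The cell types did not overlap. Its log2 difference was 1.45 ± 0.18 in controls (edgeR adjusted p = 1.31e-04) and 1.28 ± 0.18 under PEG (adjusted p = 8.76e-05). The counts carry no strand, so reads from the stretch between Tap1 and Psmb9 could not be told apart by direction.

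Tapbp averaged 389.7 ± 102.7 CPM in HEV PEG, 350.8 ± 106.6 in HEV control, 384.0 ± 63.9 in FRC PEG and 375.7 ± 58.3 in FRC control (SD, n = 6, 4, 7 and 7). The 4 groups overlapped widely. The log2 difference between HEV and FRC was -0.03 in controls, with a 95% confidence interval of -0.46 to 0.40, and 0.10 under PEG, with an interval of -0.29 to 0.48. The sign of the control difference turned with some settings, and the intervals leave room for a modest difference in either direction.

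Of the 3 immunoproteasome subunits, Psmb8 and Psmb9 were higher in HEV cells and Psmb10 was not called. Psmb8, the chymotrypsin-like subunit, had 368 to 731 CPM in HEV PEG (median 452) and 355.5, 398.5, 411 and 462 CPM in HEV control, against 187 to 400.1 CPM in FRC PEG (median 312) and 216 to 281 CPM in FRC control (median 231). In controls the cell types were apart, and under PEG 5 of 6 HEV libraries were above the highest FRC library. The log2 difference was 0.82 ± 0.16 in controls (edgeR adjusted p = 0.0030) and 0.70 ± 0.19 under PEG (adjusted p = 0.0124).

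Psmb9 had 163 to 281 CPM in HEV PEG (median 191) and 139.0, 144, 183 and 259 CPM in HEV control, against 56.9 to 131 CPM in FRC PEG (median 101) and 75.6 to 109.5 CPM in FRC control (median 101). All HEV libraries were above all FRC libraries. The log2 difference was 0.98 ± 0.22 in controls (edgeR adjusted p = 0.0055) and 1.09 ± 0.22 under PEG (adjusted p = 0.0016).

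Psmb10 had 149 to 248 CPM in HEV PEG (median 205) and 119, 152, 156 and 177 CPM in HEV control, against 104 to 194 CPM in FRC PEG (median 166) and 96.6 to 209 CPM in FRC control (median 184). The groups overlapped. The log2 difference was -0.12 in controls (95% confidence interval -0.53 to 0.28) and 0.24 under PEG (-0.12 to 0.60). In FRC libraries of either treatment, Psmb10 was lower in libraries 1 to 9 (104 to 153 CPM in PEG and 96.6 to 133 CPM in control) than in libraries 10 to 24 (166 to 194 CPM in PEG and 184 to 209 CPM in control).

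Set against the constitutive subunit that each replaces, Psmb8 and Psmb9 stood higher in HEV cells and Psmb10 lower. The ratio of Psmb8 to Psmb5 in adjusted RPKM had medians of 7.81 in HEV PEG, 7.63 in HEV control, 3.69 in FRC PEG and 3.22 in FRC control. In controls the lowest HEV ratio was 5.98 and the highest FRC ratio 5.71. The ratio of Psmb9 to Psmb6 had medians of 0.562 in HEV PEG, 0.597 in HEV control, 0.201 in FRC PEG and 0.244 in FRC control, with no overlap between the cell types. The ratio of Psmb10 to Psmb7 ran the other way, with medians of 0.850 in HEV PEG, 0.566 in HEV control, 1.62 in FRC PEG and 2.56 in FRC control, and the cell types did not overlap. Psmb7 itself rose in HEV cells, by 2.01 ± 0.40 in controls and 1.28 ± 0.22 under PEG on the log2 scale (edgeR adjusted p = 0.0031 and 5.25e-04), while Psmb5 and Psmb6 were not called. These ratios are descriptions of transcripts and say nothing of assembled proteasomes.

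**Figure D2:**
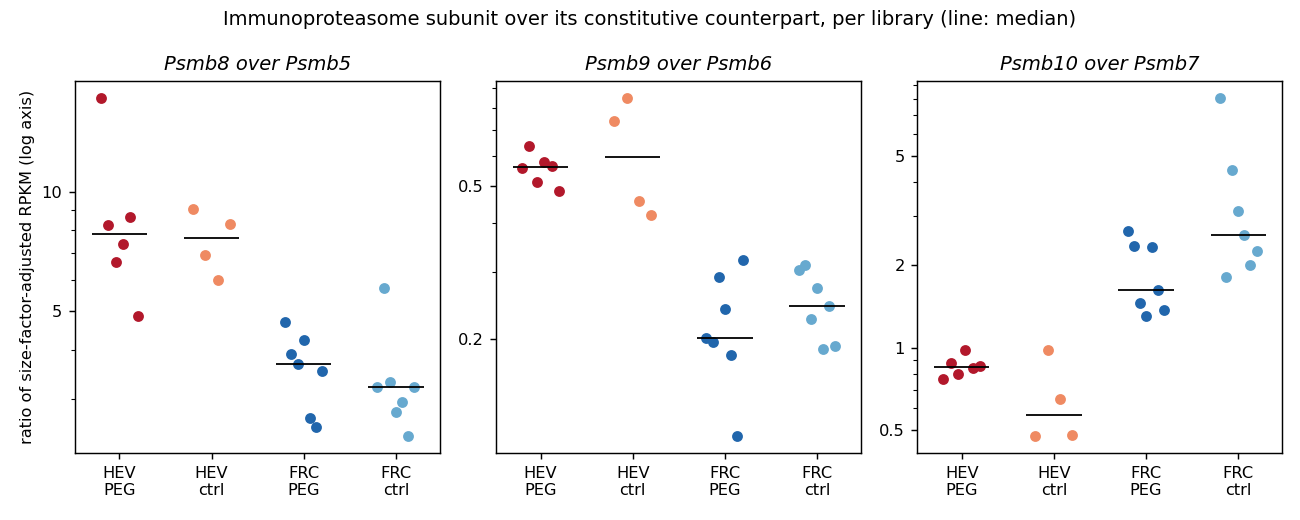
Ratio of size-factor-adjusted RPKM of each immunoproteasome subunit to its constitutive counterpart (log axis), with HEV PEG, HEV control, FRC PEG and FRC control from left to right, points for libraries and lines for medians. The Psmb9 ratios of HEV libraries (0.422 to 0.848) lie above those of FRC libraries (0.112 to 0.321), and the Psmb10 ratios of HEV libraries (0.474 to 0.982) lie below those of FRC libraries (1.31 to 8.1).

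Nlrc5 had the largest difference of the members. It had 57.1 to 118 CPM in HEV PEG (median 73.9) and 24.1, 42.3, 67.7 and 72.0 CPM in HEV control, against 0.778 to 6.18 CPM in FRC PEG (median 4.05) and 1.24 to 15.6 CPM in FRC control (median 4.80). The HEV libraries were all above the FRC libraries, which held between 13 and 266 Nlrc5 reads each. The log2 difference was 3.22 ± 0.81 in controls (edgeR adjusted p = 0.0120), a 9.31-fold higher level, and 4.70 ± 0.51 under PEG (adjusted p = 1.04e-05). Without HEV control library 8 the control difference was 3.51 and its edgeR adjusted p was 0.0503, just above the threshold. In libraries 10 to 24 alone, which also leave out library 8, Nlrc5 was among the 7 members called. In libraries 1 to 9 alone it was at 2.46 and was not called.

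**Figure D3:**
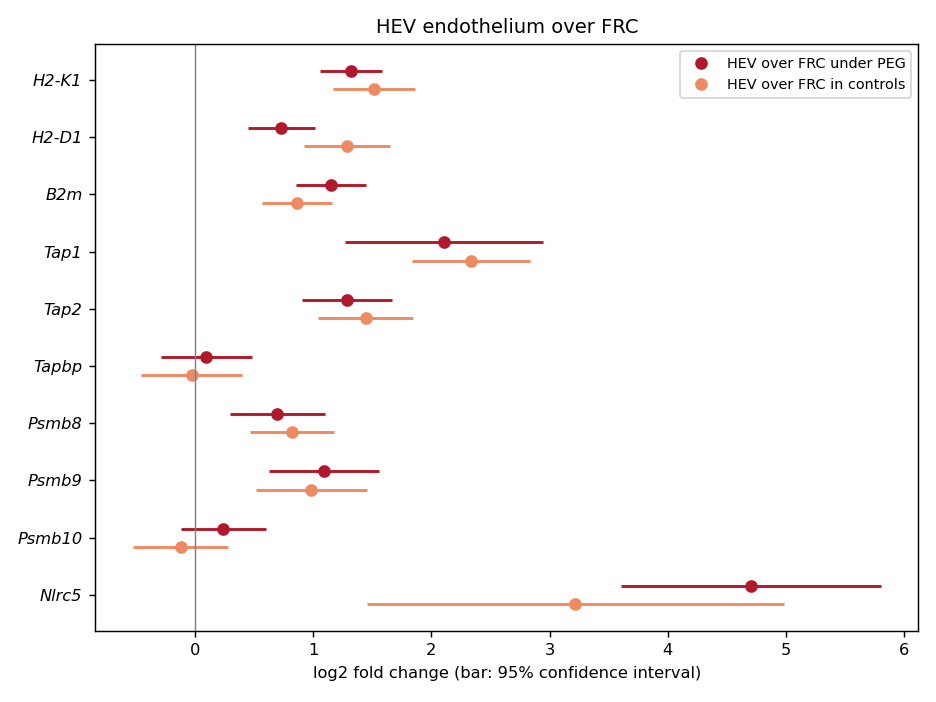
Log2 fold change of HEV over FRC for the 10 genes, under PEG and in controls, with points for the estimates and bars for 95% confidence intervals. Nlrc5 (4.70 under PEG and 3.22 in controls) lies farthest to the right, and the intervals of Tapbp and Psmb10 cross 0.

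The differences between cell types had the same sign within each range of libraries for the 8 called members. In controls their log2 differences lay between 0.84 and 2.46 in libraries 1 to 9 alone, where 5 members passed, and between 0.65 and 3.70 in libraries 10 to 24 alone, where 7 passed. Over all genes tested, 652 of 15262 were called higher in libraries 1 to 9 alone and 1291 of 16924 in libraries 10 to 24 alone. Under PEG the differences of the 8 members lay between 0.65 and 3.77 in libraries 1 to 9, which hold 1 HEV PEG library. They lay between 0.67 and 5.01 in libraries 10 to 24, where 8 passed and 1718 of 15600 genes tested were called higher. Among controls with i5 index N503 only Tap1 passed, with values of 0.67 to 3.61 for the 8 members, and among those with index N504 there were 5 that passed, with values of 0.93 to 4.44. Of all genes tested, 435 of 16243 were called higher within N503 and 506 of 16380 within N504.

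Markers of other cell types were measured beside these differences. Summed over 22 leukocyte markers, libraries held 101 to 275 CPM in HEV PEG, 125 to 317 CPM in HEV control, 87.7 to 283 CPM in FRC PEG and 19.9 to 217 CPM in FRC control. Of the leukocyte markers, 2 of 12 tested were higher and 0 lower in HEV controls, and 2 of 11 higher and 0 lower under PEG. Lck and Coro1a rose in HEV cells in both comparisons, to mean levels of 41.9 and 48.0 CPM in HEV PEG and 38.4 and 51.0 CPM in HEV control, against 0.661 and 7.79 CPM in FRC PEG and 2.77 and 3.13 CPM in FRC control. The pan-leukocyte gene Ptprc averaged 5.02 CPM in HEV PEG, 4.60 in HEV control, 1.42 in FRC PEG and 1.27 in FRC control. Cd3e, of T cells, averaged 0.792 CPM in HEV PEG, 0.0174 in HEV control, 0 in FRC PEG and 0.0176 in FRC control. Of 5 tested lymphatic endothelial markers, 2 were higher and 1 lower in HEV controls, and 3 higher and 1 lower under PEG. Lyve1 and Flt4 were higher in HEV libraries in both comparisons and Prox1 under PEG, while Pdpn, also a marker of FRCs, was lower in both. The 6 lymphatic markers summed to 36.4 to 138 CPM in HEV PEG and 33.9 to 135.0 CPM in HEV control, against 185 to 272 CPM in FRC PEG and 218 to 241 CPM in FRC control, and Pdpn made up most of the FRC sums. Of 9 pericyte and smooth muscle markers, 8 were lower and 0 higher in HEV controls, and 9 lower and 0 higher under PEG. They summed to 23.4 to 178 CPM in HEV PEG and 13.6 to 392 CPM in HEV control, against 3397 to 4851 CPM in FRC PEG and 3318 to 4883 CPM in FRC control, with the highest HEV value in library 9. Fewer cells of a type and less RNA per cell cannot be told apart in these bulk libraries. The part of these cells in the class I differences was not tested.

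Of the other pathway genes, more class I genes and regulators were higher in HEV cells than genes of the proteasome and loading lists. Of 21 further proteasome genes, 2 were higher and 0 lower in HEV controls than in FRC controls. The 2 were Psmb7 and the alpha ring subunit Psma6 (0.79 ± 0.17, edgeR adjusted p = 0.0041). The share of higher genes is close to the 10.4% of all genes, while 14.2% of all genes were lower. Under PEG there were 2 higher and 0 lower, Psmb7 and the activator subunit Psme1 (1.21 ± 0.24, adjusted p = 0.0018). The median log2 difference of the list was -0.09 in controls, against -0.16 over all genes.

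Of 16 peptide trimming and loading genes, 2 were higher and 0 lower in controls. They were the chaperone Hspa5 (1.02 ± 0.16, edgeR adjusted p = 5.42e-04) and the cytosolic peptidase Tpp2 (1.45 ± 0.31, adjusted p = 0.0046). Under PEG both were again higher, while Pdia6 (-0.78 ± 0.21) and Sec61a1 (-0.65 ± 0.23) were lower. The counts of higher genes are close to the shares of all genes tested, which were 10.4% in controls and 12.5% under PEG. Under PEG the count of lower genes is also close to the share of all genes, 14.4%. In controls 0 of 16 were lower, where 14.2% of all genes tested were lower. The list's median log2 difference was 0.13 in controls and 0.21 under PEG.

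Of 16 other class I and class I-like genes, 7 were higher and 3 lower in HEV controls, where 10.4% of all genes tested were higher and 14.2% lower. The class Ib genes H2-Q6 (3.07 ± 0.14 on the log2 scale), H2-Q7 (2.57 ± 0.23), H2-T22 (0.86 ± 0.17) and H2-T10 (0.86 ± 0.17) were among those higher (edgeR adjusted p = 3.67e-08, 9.99e-06, 0.0028 and 0.0028). H2-Q6 averaged 1493 ± 262 CPM in HEV PEG and 1707 ± 116 in HEV control, against 224 ± 37.5 in FRC PEG and 212 ± 18.1 in FRC control (SD, n = 6, 4, 7 and 7). Lower were H2-Q10 (-3.27 ± 0.46), the neonatal Fc receptor chain Fcgrt (-1.45 ± 0.16) and H2-M2 (edgeR adjusted p = 2.73e-04, 4.06e-05 and 9.98e-04). H2-M2 was at 1 read in all HEV control libraries together, so no fold is given, and had 0.0174 CPM there against 14.9 ± 15.2 CPM in FRC control. Under PEG 7 were higher and 2 lower, and the list's median was 0.81 in controls and 0.85 under PEG.

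Of 28 regulators of class I expression, 9 were higher and 0 lower in HEV controls, and 13 were higher and 0 lower under PEG. Over all genes tested, 10.4% were higher in HEV cells in controls and 12.5% under PEG. The interferon regulatory factor Irf1 averaged 3463 ± 536 CPM in HEV PEG and 4272 ± 278 in HEV control, against 509 ± 118 in FRC PEG and 563 ± 139 in FRC control. Its log2 difference was 2.98 ± 0.17 in controls and 2.94 ± 0.16 under PEG (edgeR adjusted p = 2.65e-07 and 1.19e-08). The feedback inhibitor Socs3 (2.47 ± 0.26), the kinase Jak1 (1.74 ± 0.19) and the receptor chain Ifnar2 (0.95 ± 0.20) were also higher in controls (edgeR adjusted p = 2.72e-05, 4.23e-05 and 0.0049).

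**Figure D4:**
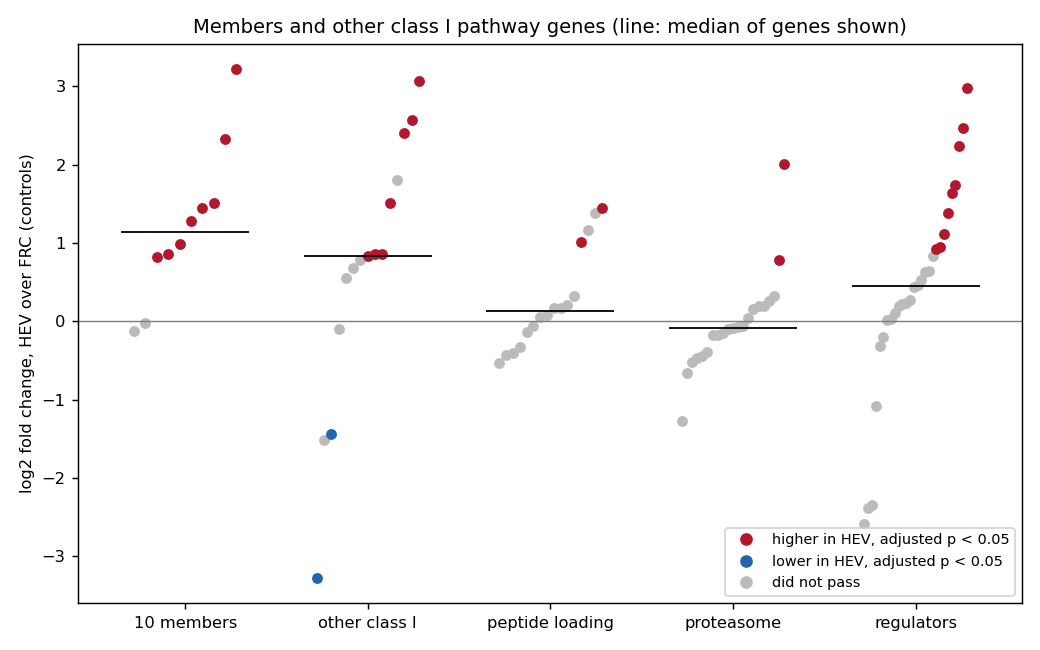
Log2 fold change of HEV over FRC in controls for the 10 genes and 4 lists of other pathway genes, with a point for each gene, colour for the call and a line for the median of the points. Of the 10 genes 8 are higher, and of the proteasome list 2 of 21 are higher, while H2-M2 is not drawn.

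PEG was compared with control within each cell type to ask whether these genes differed under PEG. In HEV cells 0 of 10 members were called at an adjusted p under 0.05, where 0% of the 14308 genes tested were called by the edgeR quasi-likelihood test. In all, 886 genes had an unadjusted p under 0.05, and 116 were called by DESeq2 and 0 by limma-voom. In FRCs 0 of 10 members were called, where 0% of the 14595 genes tested were called, 989 had an unadjusted p under 0.05, and 57 were called by DESeq2 and 0 by limma-voom. The PEG and control ranges overlapped for all 10 members in both cell types. Over all genes, PEG lay wholly above control for 0.538% and wholly below for 0.398% in HEV cells, and for 0.0411% and 0.0343% in FRCs.

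In HEV cells the largest estimate was that of Nlrc5, with 80.5 ± 24.6 CPM in HEV PEG and 51.5 ± 22.5 CPM in HEV control (SD, n = 6 and 4). Its log2 fold change was 0.68, with a 95% confidence interval of -0.20 to 1.55 (edgeR unadjusted p = 0.118, adjusted p = 0.829). It fell to 0.18 without HEV control library 9 and rose to 0.92 without HEV PEG library 23. HEV control had 24.1 and 42.3 CPM of Nlrc5 in libraries 1 to 9, and 67.7 and 72.0 CPM in libraries 10 to 24. HEV PEG had 62.5 CPM in its 1 library of the first range and 57.1 to 118 CPM in the second. Psmb10 had 196 ± 39.3 CPM in HEV PEG and 151 ± 24.0 CPM in HEV control (0.26, interval -0.20 to 0.73). H2-K1 had 7886 ± 817 CPM in HEV PEG and 9068 ± 2496 CPM in HEV control (-0.17, interval -0.56 to 0.22), and H2-D1 had 5654 ± 813 CPM in HEV PEG and 6635 ± 1615 CPM in HEV control (-0.24, interval -0.68 to 0.20). HEV control library 17 held the highest values of both, 12510 CPM of H2-K1 and 8971 CPM of H2-D1. Without it the estimates were -0.029 for H2-K1 and -0.066 for H2-D1, and without HEV control library 9 they were -0.28 and -0.41. For the other 6 members the estimates lay between -0.04 and 0.14. The intervals of H2-K1, B2m and Tap2 lie within 0.56 of 0 on either side. Those of Psmb9, Tapbp, Psmb8, H2-D1 and Psmb10 reach farther, to 0.58, 0.59, 0.61, -0.68 and 0.73. Those of Tap1 and Nlrc5 are wider still, and reach -0.75 and 1.55.

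In FRCs the member of smallest p was H2-D1. It had 2869 to 4000.0 CPM in FRC PEG (median 3479) and 2285 to 3163 CPM in FRC control (median 2784), and 5 of 7 PEG libraries were above the highest control. Its log2 fold change was 0.30 ± 0.09, a 1.24-fold level (edgeR unadjusted p = 0.00332, adjusted p = 0.572), and it did not pass, while DESeq2 called it at 0.29 with an adjusted p of 0.0390. It was 0.17 ± 0.12 in libraries 1 to 9 alone and 0.39 ± 0.13 in libraries 10 to 24 alone. Psmb8 had 298 ± 71.6 CPM in FRC PEG and 243 ± 26.3 CPM in FRC control, at 0.31 ± 0.15 (unadjusted p = 0.0466, adjusted p = 0.728). Nlrc5, at few reads in FRCs, was at -0.74 with an interval of -2.33 to 0.84. The other 7 members lay between -0.08 and 0.16.

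**Figure D5:**
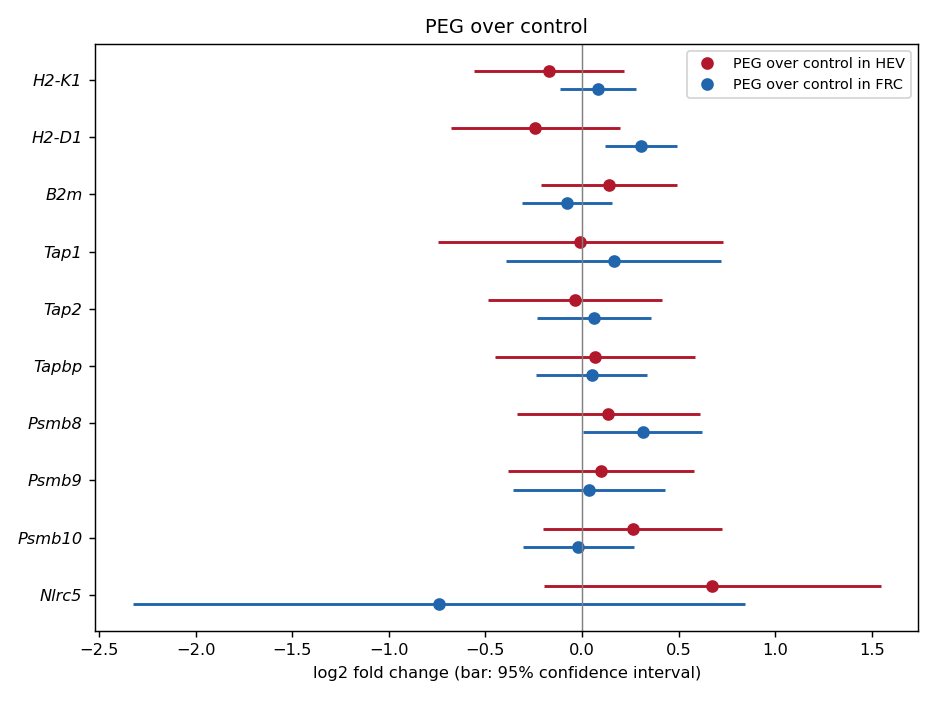
Log2 fold change of PEG over control for the 10 genes in HEV cells and in FRCs, with points for the estimates and bars for 95% confidence intervals. None of the 10 passed the adjusted test in either cell type, and the interval of H2-D1 in FRCs (0.12 to 0.49) lies above 0 before adjustment.

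The PEG effect in HEV was set against that in FRC by the interaction term, which was called for 0 of 10 members and for 2 of 18203 genes (0.011%). The smallest p was that of H2-D1, at -0.60 ± 0.21 for the effect in HEV minus that in FRC (edgeR unadjusted p = 0.00773, adjusted p = 0.316). This H2-D1 value was -0.37 without HEV control library 17 and -0.75 without HEV control library 9. For Nlrc5 the difference was 1.20 ± 0.83 (adjusted p = 0.660). Of the 4 lists of other pathway genes, none had a gene called for PEG over control in either cell type. In HEV cells the smallest p values within the lists were those of Psme1 (0.64 ± 0.26, unadjusted p = 0.0323), Psmg1 (1.12 ± 0.48), Sec61a1 (-0.69 ± 0.30), Hspa5 (-0.38 ± 0.17), H2-Q2 (0.93 ± 0.54), the class II transactivator Ciita (3.60 ± 1.36), Rfx5 (2.38 ± 1.06) and H2-M2. In FRCs they were those of Psma6 (0.38 ± 0.16), Psmg1 (-0.59 ± 0.28), Pdia6 (0.47 ± 0.14), Nrd1 (-0.67 ± 0.21), H2-Q2 (1.78 ± 0.57), Hfe (0.50 ± 0.25), Nfyb (-0.71 ± 0.21) and the receptor chain Ifngr1 (0.47 ± 0.18), with adjusted p-values of 0.579 or more.

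Intestinal epithelial markers varied between libraries beside these PEG comparisons. Summed over 20 markers, their level was 43.4 to 5432 CPM in HEV PEG and 16.6 to 1059 CPM in HEV control, and 108 to 7483 CPM in FRC PEG and 58.9 to 3292 CPM in FRC control. None of the 19 tested in either cell type passed for PEG over control, and all 19 had a positive estimate in both. The 6 libraries of highest epithelial level were also left out, a choice made after seeing the data. In controls 8 of 10 members were then higher in HEV cells and 0 lower, where 1451 of 15285 genes were higher and 1882 lower. Under PEG 8 members were again higher and 0 lower, where 1275 of 15830 genes were higher and 1534 lower. For PEG in HEV, in FRC and for the difference of effects, 0 members and 0 genes were called. These 6 libraries include all PEG libraries among libraries 17 to 24 (18, 19, 22 and 23), so epithelial level and sequencing pool were changed together. Of these 6 libraries FRC control library 20 alone is from a control mouse, so in controls this leaves out that library only. The part of epithelial RNA in single values was not tested.

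The genes whose levels ran most like the members were found by Pearson's r with the mean z-score of the members, over the 24 libraries and among 11716 genes. They were H2-Q9 (r = 0.968), Klk8 (0.966), Srgn (0.963), Gpr182 (0.961), Klf2 (0.960) and Unc45bos (0.959). H2-Q9 is a class Ib gene and near copy of H2-Q7, and averaged 929 CPM in HEV PEG and 890.3 CPM in HEV control, against 175 CPM in FRC PEG and 159.5 CPM in FRC control. All 6 were higher in HEV than in FRC libraries, so these values mostly describe the cell types and share the same libraries and depths. Klk8, Gpr182 and Unc45bos averaged 0.214, 0.116 and 0.0809 CPM in FRC PEG and 0.0449, 0.689 and 0.206 CPM in FRC control. They passed the 5 CPM minimum on the mean over libraries through the HEV libraries, and their FRC levels were near the floor. With Spearman's rho 1 of the 6 stayed among the first 6.

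After each value was set against the mean of its group, the 6 genes were Ubr7 (r = 0.773), Gprasp2 (0.770), Macf1 (0.707), Mydgf (0.681), 4930579G24Rik (0.679) and Klf2 (0.678), of which 1 stayed among the first 6 with Spearman's rho. Between the members themselves, the 45 pairs had a median r of 0.724 over the 24 libraries and 0.053 after the group means were taken out. Within groups H2-K1 and H2-D1 ran together (0.647), as did Tap1 and Tap2 (0.630) and B2m and Psmb10 (0.725), while Tap1 and Psmb10 ran in opposite directions (-0.734). In FRC control, B2m, Psmb10 and Tap1 averaged 2369, 114 and 83.8 CPM in libraries 1 to 9, against 3873, 199 and 40.8 CPM in libraries 10 to 24. FRC PEG and HEV control shifted the same way, but Tap1 in HEV PEG did not (217 CPM in 1 library, against 235 CPM). This split was not taken out, and its part in these r values was not tested. Of the 6 genes most alike, Gprasp2 averaged 0.465 CPM in HEV PEG, 0.0499 in HEV control, 23.8 in FRC PEG and 19.7 in FRC control. 4930579G24Rik averaged 1.20 CPM in HEV PEG, 0.741 in HEV control, 16.4 in FRC PEG and 15.8 in FRC control. Both passed the 5 CPM minimum on the mean over libraries through the FRC libraries, and their HEV levels were near the floor. These are descriptions over 24 libraries that share pools, and no test was made of them.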

How the data were processed

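RNA of 24 sorted cell samples was sequenced. The deposited tables give 2 values for each of 36528 gene models, which the file headers name as a count and a size-factor-adjusted RPKM, both made by the authors. The submitters' processing notes name the aligner GSNAP and the mouse build mm9. The labels' protocols add that reads of low quality, rRNA and adapters had been taken out and that only uniquely placed reads entered. They name a human build, which was not followed, since the identifiers belong to mouse. Aligner version and annotation are not given in the sources used here. Identifiers were named through RefSeq (GRCm38.p6), which covered 85.0% of models and 97.3% of reads, and 2 genes of the lists had no model.

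Counts were tested with edgeR 4.0.16 (limma 3.58.1, R 4.3.3): filterByExpr at a count minimum of 10, TMM scaling and the robust quasi-likelihood F test, two-sided, with the sequencing pool as covariate. The 3 pools (libraries 1 to 8, 9 to 16 and 17 to 24) were inferred from recurring index pairs. An SE is the estimate divided by the root of its F. The steps were tested on simulated data. RPKM served only for levels between genes and ratios, and log2(CPM + 1) for likeness, over named genes that averaged 5 CPM or more. Alternatives were DESeq2 1.42.0 and its size factors, the submitters' size factors, limma-voom, other filters and covariates, subsets of libraries and each library left out.

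Named genes outside the 10 were those of smallest p in each list, up to 4 higher and 4 lower between cell types and 2 for each PEG comparison, with markers and the genes most alike. Members and lists were chosen with earlier results of these data known. Reads are PCR copies without molecular identifiers.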

Additional observations from a re-analysis of the deposited data

Results flagged for a closer look

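Among 40 sets of values (10 genes in 4 groups), 3 held a library that stood apart from the rest of its group by Dixon's test at the 95% level. Chance flags about 1 in 20 such groups. H2-K1 in HEV PEG library 16 was the lowest of its group at 6284 CPM, with the next library at 7914 CPM. That library was also the shallowest, at 3115003 reads. Tap1 in HEV PEG library 22 was the highest of its group at 437.0 CPM, with the next at 217 CPM, and Tap2 in the same library was the highest at 559.7 CPM, with the next at 391 CPM. Without library 22 the log2 fold change of PEG over control in HEV was -0.40 for Tap1 and -0.21 for Tap2, against -0.01 and -0.04 with it. The part of depth or of single libraries in these values was not tested.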

How the results depend on the processing

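The calls between HEV and FRC in controls were 3869 genes and 8 of 10 members, and with each library left out in turn 3121 to 3791 genes and 7 to 8 members. They fell to 1477 genes and 5 members in libraries 1 to 9 alone, to 1114 genes and 1 member within i5 index N503 and to 1194 genes and 5 members within index N504, which hold fewer libraries. The cause was not tested beyond that. Under PEG the 4022 genes and 8 members became 1137 genes and 3 members in libraries 1 to 9 alone, and 3448 to 3944 genes and 8 members with single libraries left out. For PEG over control in HEV the call of 0 genes became 141 with no filter on low counts, 116 by DESeq2 and 18 in 1 model of 24 libraries, with 0 members under all of these. In FRC it became 177 with no filter, 57 by DESeq2, with 1 member, H2-D1, and 1 in libraries 10 to 24 alone. For the difference of effects the 2 genes became 38 with no filter, 350 by DESeq2, 9 by limma-voom, 5 without covariate, 7 with a term for libraries 1 to 9, 0 with the i5 index added, 7 in libraries 10 to 24, 19 in libraries 1 to 9, and 0 without the 6 libraries of highest epithelial level, with a range of 1 to 16 when single libraries were left out. The last of these choices was made after seeing the data.

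Between cell types and under PEG, uncalled log2 fold changes turned sign as follows, with adjusted p-values of 0.489 or more, and none of the called ones did. The cause of each turn was not tested.
For HEV over FRC in controls, Tapbp was at 0.006 with no filter, 0.0095 by limma-voom, 0.32 in libraries 1 to 9, 0.033 in 1 model of 24 libraries and 0.073 without the epithelial-rich libraries and Psmb10 was at 0.047 with a term for libraries 1 to 9 and 0.31 in libraries 1 to 9. With single libraries left out, Tapbp ran from -0.15 to 0.08. For HEV over FRC under PEG, Tapbp was at -0.058 without the epithelial-rich libraries. For PEG over control in HEV, H2-K1 was at 0.0029 with the i5 index added, 0.16 in libraries 1 to 9 and 0.15 without the epithelial-rich libraries and H2-D1 was at 0.12 in libraries 1 to 9 and 0.13 without the epithelial-rich libraries. Tap1 was at 0.011 with DESeq2 size factors, 0.013 with the submitters' size factors, 0.0064 at a count minimum of 50, 0.011 by DESeq2, 0.13 with a term for libraries 1 to 9, 0.12 with the i5 index added, 0.43 in libraries 10 to 24, 0.20 within index N504 and 0.056 in 1 model of 24 libraries and Tap2 was at 0.06 in libraries 10 to 24. Tapbp was at -0.0087 by limma-voom, -0.014 in libraries 1 to 9 and -0.29 without the epithelial-rich libraries and Psmb8 was at -0.065 within index N504. Psmb9 was at -0.055 with the i5 index added, -0.23 in libraries 1 to 9, -0.062 within index N504 and -0.048 without the epithelial-rich libraries. With single libraries left out, Tap1 ran from -0.40 to 0.28, Tap2 ran from -0.21 to 0.054, Tapbp ran from -0.077 to 0.23 and Psmb8 ran from -0.088 to 0.21. For PEG over control in FRC, H2-K1 was at -0.061 in libraries 10 to 24 and B2m was at 0.17 in libraries 1 to 9 and 0.019 without the epithelial-rich libraries. Tap2 was at -0.089 in libraries 1 to 9 and Tapbp was at -0.035 with the i5 index added, -0.10 in libraries 10 to 24 and -0.051 within index N503. Psmb9 was at -0.0011 by limma-voom, -0.12 with the i5 index added, -0.059 in libraries 10 to 24 and -0.15 within index N503 and Psmb10 was at 0.06 with the i5 index added, 0.11 in libraries 1 to 9, 0.04 within index N503 and 0.0042 without the epithelial-rich libraries. With single libraries left out, Tapbp ran from -0.012 to 0.11, Psmb9 ran from -0.087 to 0.13 and Psmb10 ran from -0.13 to 0.018. For the effect in HEV minus that in FRC, B2m was at -0.042 in libraries 1 to 9 and Tap1 was at 0.12 with a term for libraries 1 to 9, 0.11 with the i5 index added and 0.17 in libraries 10 to 24. Tapbp was at -0.067 by limma-voom, -0.26 in libraries 1 to 9 and -0.22 without the epithelial-rich libraries and Psmb8 was at 0.037 without the epithelial-rich libraries. Psmb9 was at -0.39 in libraries 1 to 9. With single libraries left out, Tap1 ran from -0.57 to 0.048, Tapbp ran from -0.047 to 0.20 and Psmb9 ran from -0.0045 to 0.26.

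No paired analysis was possible because each library number occurs once and no label ties a library of one group to a library of another.
Depth limits Nlrc5 most, at 13 to 266 reads in an FRC library. Near-identical class I copies and unique alignment limit the heavy chain values, and the lack of strand limits the Tap1 and Psmb9 values. The unequal spread of the i5 index limits all members in every comparison that uses PEG libraries. The 4 HEV control libraries limit every comparison that uses them. P-values set each difference between groups against the spread between these libraries.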
